A study of Homo sapiens with 11 samples.

Results

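The comparison described here sets 769-P cells given a second siRNA against AKR1A1 (si2, n = 4 libraries) against the same cells given a control siRNA (siSCR, n = 4 libraries), 8 of the 11 RNA-sequencing libraries of the study. The members were the 4 columns of each group in the authors' table of this comparison, taken by name. 769-P is an established human renal carcinoma line. Both groups grew in 6-well plates and were transfected for 48 h with the RNAiMAX lipid reagent, in Opti-MEM, with an siRNA labelled at 20 µM. si2 cells carry a knockout genotype label (AKR1A1-/-) and siSCR cells a wild-type label, although both groups were treated with a transient siRNA and no edited clone is described. Nothing in the labels states that the replicates came from separate cultures, and the p-values therefore cover only the spread among these libraries.

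AKR1A1 is an NADPH-dependent aldehyde reductase whose substrates include D-glucuronate and S-nitrosylated coenzyme A, and in kidney it is abundant in the proximal tubule. An siRNA directs the cleavage of a matching messenger RNA and can also lower other messengers through short matches to its seed. Cells make sterols from acetyl-CoA by the mevalonate pathway, whose enzymes are transcribed under SREBP factors that leave the endoplasmic reticulum when membrane sterol is low.

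Depth was 2958944 to 5939514 reads on genes in si2 and 2271348 to 3836109 in siSCR. Levels are the authors' normalized counts, and every difference is si2 over siSCR on the log2(normalized count + 1) scale, which understates the change of low genes. One control, siSCR 1, stood apart from the other siSCR libraries. Its log2 levels correlated with theirs at 0.917 to 0.932, against 0.972 to 0.977 among those 3, and on the first principal component (38.7% of the variance) it lay at -23.1, beside the si2 libraries at -21.0 to -16.4 and away from the other controls at 30.7 to 35.8. Mitochondrially encoded transcripts took 12.1% of its reads, against 4.59% to 5.12% in si2 and 3.46% to 4.46% in siSCR 2 to 4. Each result is therefore given with and without siSCR 1, and where a gene or list has a pair of log2 fold changes, medians or adjusted p-values, the first is from all 8 libraries and the second is without siSCR 1. The origin of its difference was not tested. Of 14 markers of the line's identity, renal and epithelial genes with vimentin (VIM), 9 passed the filter on low values. Among them were PAX8 (711 to 849.6 in si2 and 745 to 1149 in siSCR), LHX1, KRT8 and KRT18. The sum of the 14 was 13152 to 14032 in si2 and 12615 to 14263 in siSCR. Most of it came from VIM (8913 to 10037 in si2 and 8342 to 9687 in siSCR), so the sum says little of the others. With all 8 libraries 4 of the 9 had positive and 5 negative log2 fold changes, and 0 were called, beside 1.93% higher and 1.19% lower of all genes tested. Without siSCR 1 3 were positive and 6 negative. In that fit 2 were called higher and 0 lower, beside 7.82% and 6.75% of all genes tested. CDH6 was at 641 to 755 in si2 and 379 to 512 in siSCR. The 5 markers that did not pass were low or absent. CA9, a usual mark of clear-cell tumours, was at 0 in every library, and KRT19 reached 1.05 in si2 and 0 in siSCR. EPCAM reached 7.35 and 7.85, MME 6.42 and 13.2, and EPAS1 15.9 and 24.4. Of 10 endothelial markers 8 were at 0 in every library, and summed fibroblast markers reached 51.5 to 76.1 in si2 and 33.6 to 54.9 in siSCR; leukocyte markers summed to 41.0 to 88.4 in si2 and 60.1 to 114 in siSCR, nearly all from CD68 (85.8% of whose exon bases are shared with another gene), and the part of these in any result was not tested.

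AKR1A1 was lower in si2 than in siSCR. Its normalized counts were 56.6, 32.1, 48.3 and 46.1 in si2 1 to 4, against 390.4, 256, 200.1 and 242 in siSCR 1 to 4. The groups were far apart and siSCR 1 was the highest of all. The gene (ENSG00000117448; GRCh38 chromosome 1 from 45550543 to 45570049) fell by 2.53 on the log2 scale (SE 0.24; limma adjusted p = 0.00218), leaving 16.8% of the siSCR mean. Without siSCR 1 the value was -2.34 (SE 0.21; limma adjusted p = 8.46e-04) and 19.7% remained. An exact two-sided permutation test of the log2 values gave p = 0.0286 with all 8 libraries and p = 0.0571 without siSCR 1, the smallest that 70 and 35 splits allow. Of the other 18 aldo-keto reductases, carbonyl reductases and aldehyde dehydrogenases tested none was called with all 8 libraries, whereas without siSCR 1 ALDH2 and AKR1B1 rose (0.57 and 0.67) and ALDH1A1 fell (-0.55). Of 12 tested genes of glucuronate, inositol and polyol metabolism none was called with all 8 libraries, and 1, MIOX, which opens the inositol ring to glucuronate, rose without siSCR 1 (1.06, limma adjusted p = 0.0238). Over all genes tested 1.93% rose and 1.19% fell with all 8 libraries, and 7.82% and 6.75% without siSCR 1. The counts in both lists without siSCR 1 lie near those shares.

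Across the 10249 genes tested, limma with Benjamini-Hochberg adjustment at a threshold of 0.05 called 320 (3.12%), of which 198 rose (1.93%) and 122 fell (1.19%) in si2. Without siSCR 1 it called 1493 (14.6%), 801 higher (7.82%) and 692 lower (6.75%). These shares are the background for every count of list members. All 320 genes were also called without siSCR 1, with the same sign, and their median absolute log2 fold change was 1.03 with that library and 1.09 without it. In each of the 320 every si2 library lay on one side of every siSCR library, as in 1291 of all 10249 genes tested. In 163 of them siSCR 1 lay between si2 and the other controls, in 105 within the range of the other controls and in 52 beyond it, away from si2. The 1173 genes called only without siSCR 1 were placed otherwise, since in 809 of them (69.0%) siSCR 1 lay within or past the si2 range. That contrast follows in part from how these sets were chosen. A siSCR 1 value near si2 works against a call with all 8 libraries but not against a call without it. The changes were moderate in size: 151 of the 320 were under 1 on the log2 scale, 154 between 1 and 2, and 15 were 2 or more. With 1 of the other 7 libraries left out in turn, 53 to 83 genes rose and 31 to 58 fell. In all, 69 genes (41 higher, 28 lower) were called whichever 1 library was left out. In bulk RNA, fewer cells of a kind and less RNA per cell cannot be told apart.

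**Figure D1:**
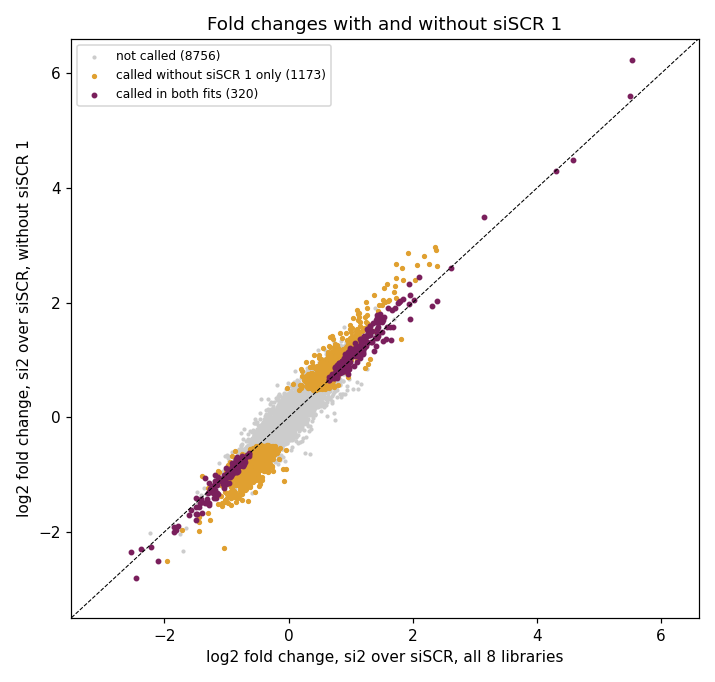
Each point is 1 tested gene, with its log2 fold change (si2 over siSCR) from all 8 libraries on the x axis and without siSCR 1 on the y axis. The 320 genes called in both fits lie close to the dashed line of equal values, and the 1173 genes called only without siSCR 1 lie mostly farther from 0 without that library.

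Enzymes of sterol synthesis tended to higher levels in si2, with positive values in 18 of 19, and the score of the list in siSCR 1 lay within the range of the other controls. Of 19 tested enzymes 7 rose and 0 fell, beside 1.93% and 1.19% of all genes tested, with a median log2 fold change of 0.60 against a median of -0.01 over all of those. Without siSCR 1, 9 rose and 0 fell, beside 7.82% and 6.75%, and the median was 0.62. In pathway order the 7 were HMGCS1, which makes HMG-CoA, the mevalonate kinase MVK, the isopentenyl diphosphate isomerase IDI1, the squalene synthase FDFT1, the squalene epoxidase SQLE, the C4-methyl sterol oxidase MSMO1 and DHCR7, which catalyses the last step to cholesterol. IDI1 (GRCh38 chromosome 10 from 1039152 to 1049170) had normalized counts of 88.4, 90.7, 95.6 and 98.5 in si2 1 to 4, against 41.1, 36.3, 37.9 and 37.7 in siSCR 1 to 4. Each group was tight and all siSCR libraries were alike. IDI1 rose by 1.26 (SE 0.14; limma adjusted p = 0.00298), and by 1.30 without siSCR 1 (limma adjusted p = 9.49e-04). MSMO1 (chromosome 4 from 165327623 to 165343160) had 227, 282, 256 and 232 in si2, against 131, 78.0, 64.1 and 78.4 in siSCR. Its siSCR 1 value was the highest control and still below every si2 library. MSMO1 rose by 1.54 (SE 0.22; limma adjusted p = 0.00804), and by 1.75 without siSCR 1 (limma adjusted p = 8.46e-04). HMGCS1 rose by 1.63 and 1.57 with and without siSCR 1, SQLE by 1.44 and 1.71, DHCR7 by 1.25 and 1.25, MVK by 1.08 and 1.20 and FDFT1 by 0.82 and 0.88. The enzymes called only without siSCR 1 were LSS, which closes the sterol ring (1.31 and 1.02), and MVD (0.60 and 0.76). FDPS was the one enzyme with a negative value (-0.31 and -0.41, not called). IDI1, HMGCS1 and MSMO1 kept their calls whichever library was left out. FDFT1 and SQLE lost theirs without each of the 7 libraries other than siSCR 1, and MVK and DHCR7 without 6 of those 7. The highest limma adjusted p was 0.0944 for FDFT1 and 0.112 for MVK (both without si2 4). It was 0.0909 for SQLE and 0.133 for DHCR7 (both without siSCR 4). With 1 of those 7 libraries left out, 3 to 4 enzymes were called. Exons of HMGCS1 and IDI1 share 15% and 14.8% of their bases with another annotated gene, and whether the counting used strand was not given in the sources used here.

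Around the synthesis genes, 5 of 20 tested genes of sterol sensing, uptake and export rose and 0 fell (median 0.33), beside 1.93% and 1.19% of all genes tested. Without siSCR 1 7 rose and 1 fell (median 0.37), beside 7.82% and 6.75%. INSIG1 (GRCh38 chromosome 7 from 155297776 to 155310235), which holds the SREBP complex in the endoplasmic reticulum and is itself an SREBP target, had 239, 269.7, 359 and 287 in si2, against 72.2, 92.9, 111 and 82.5 in siSCR. Every si2 library was above every control. INSIG1 rose by 1.68 (SE 0.19; limma adjusted p = 0.00363) and by 1.58 without siSCR 1 (limma adjusted p = 0.00179). SREBF2, the transcription factor of the pathway, had 202, 224, 231 and 255 in si2, against 178, 96.2, 102 and 94.7 in siSCR. Its siSCR 1 value lay between the si2 libraries and the other 3 controls. SREBF2 rose by 1.00 (limma adjusted p = 0.0396) and by 1.21 without siSCR 1 (limma adjusted p = 0.00179). NPC2, which moves cholesterol out of the lysosome, rose by 0.97 and 1.04, and STARD4, a sterol carrier, by 1.42 and 1.72. Called only without siSCR 1 were the ubiquitin ligase MYLIP (1.58), the sterol exporter ABCA1 (0.78) and ERLIN1 (-0.93). SREBF1, SCAP, NPC1 and the proteases MBTPS1 and MBTPS2 were not called either way. INSIG1 kept its call without any 1 library, NPC2 lost its call without si2 4, siSCR 2 or siSCR 4 (highest limma adjusted p = 0.0676), and SREBF2 and STARD4 lost theirs without each of the 7 libraries other than siSCR 1 (highest 0.127 and 0.0962, both without siSCR 4).

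Promoter windows from RefSeq (GRCh38.p14, 250 bases before to 50 after the gene start) were searched on both strands for CCAAT, the box bound by NF-Y, and for TCACNCCAC, a form of the sterol regulatory element bound by SREBP. CCAAT lay in 12 of the 14 sterol synthesis promoters in the table, against 37.4% of the 8409 tested genes with a promoter there. The sterol regulatory element lay in none of those 14 and in 1 of 17 promoters of sterol sensing genes, SREBF2, against 1.07% of tested genes. A match is a run of letters and was not tested as a binding site, and no match says only that these letters are not in the window. The stretches below hold the matches in HMGCS1 (chr5:43313493-43313582, minus strand), MSMO1 (chr4:165327469-165327654, plus strand) and SREBF2 (chr22:41832957-41833018, plus strand), printed 5′ to 3′ on the strand of the gene to show how the boxes lie in genes that rose; capitals mark CCAAT or its reverse complement, and in SREBF2 first the sterol element and then the box.
HMGCS1: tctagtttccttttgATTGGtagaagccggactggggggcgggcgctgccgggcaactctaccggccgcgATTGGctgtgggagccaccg
MSMO1: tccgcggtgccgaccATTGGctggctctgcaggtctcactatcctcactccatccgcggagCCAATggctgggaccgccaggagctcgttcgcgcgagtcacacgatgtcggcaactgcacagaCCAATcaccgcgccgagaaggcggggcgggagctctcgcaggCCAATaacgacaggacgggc
SREBF2: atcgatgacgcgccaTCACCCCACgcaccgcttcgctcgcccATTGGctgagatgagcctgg

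Fatty acid synthesis and activation gave 3 genes that rose and 1 that fell of 17 tested (median 0.48), and 8 and 1 without siSCR 1 (median 0.37). The shares over all genes tested were 1.93% and 1.19%, and 7.82% and 6.75% without siSCR 1. SCD, which makes monounsaturated fatty acids, had 846, 809, 1115 and 845 in si2, against 519.7, 371, 423 and 275 in siSCR. All si2 libraries were above all controls, with si2 3 well above the other 3. SCD rose by 1.21 (limma adjusted p = 0.0195) and by 1.35 without siSCR 1 (limma adjusted p = 0.00386). ACLY, which makes cytosolic acetyl-CoA from citrate, rose by 0.80 and 0.80 with and without siSCR 1, and ACSS2, which makes it from acetate, by 1.40 and 1.24. ACSL4, which activates arachidonate, fell (-0.89 and -0.83) on the log2 scale. The additional rises without siSCR 1 were in ELOVL5 (0.65), ACSL3 (0.51), ME1 (0.74), FADS1 (0.88) and HSD17B12 (0.85), and FASN itself was not called (0.36 and 0.37). LPIN1, a phosphatidate phosphatase, was the 1 gene of 19 in glycerolipid synthesis and lipid droplets that rose (1.08 and 1.16), and 0 fell. In that list 1 rose and 1 fell without siSCR 1. LPIN1 lost its call in 5 of the 8 fits that left out 1 library (highest limma adjusted p = 0.0747, without siSCR 2). Without any 1 library other than siSCR 1 between 0 and 2 of the 4 fatty acid calls were left, the highest limma adjusted p being 0.0659 for SCD (without siSCR 2), 0.0878 for ACLY (without siSCR 4), and 0.0834 for ACSS2 and 0.0996 for ACSL4 (both without si2 4).

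**Figure D2:**
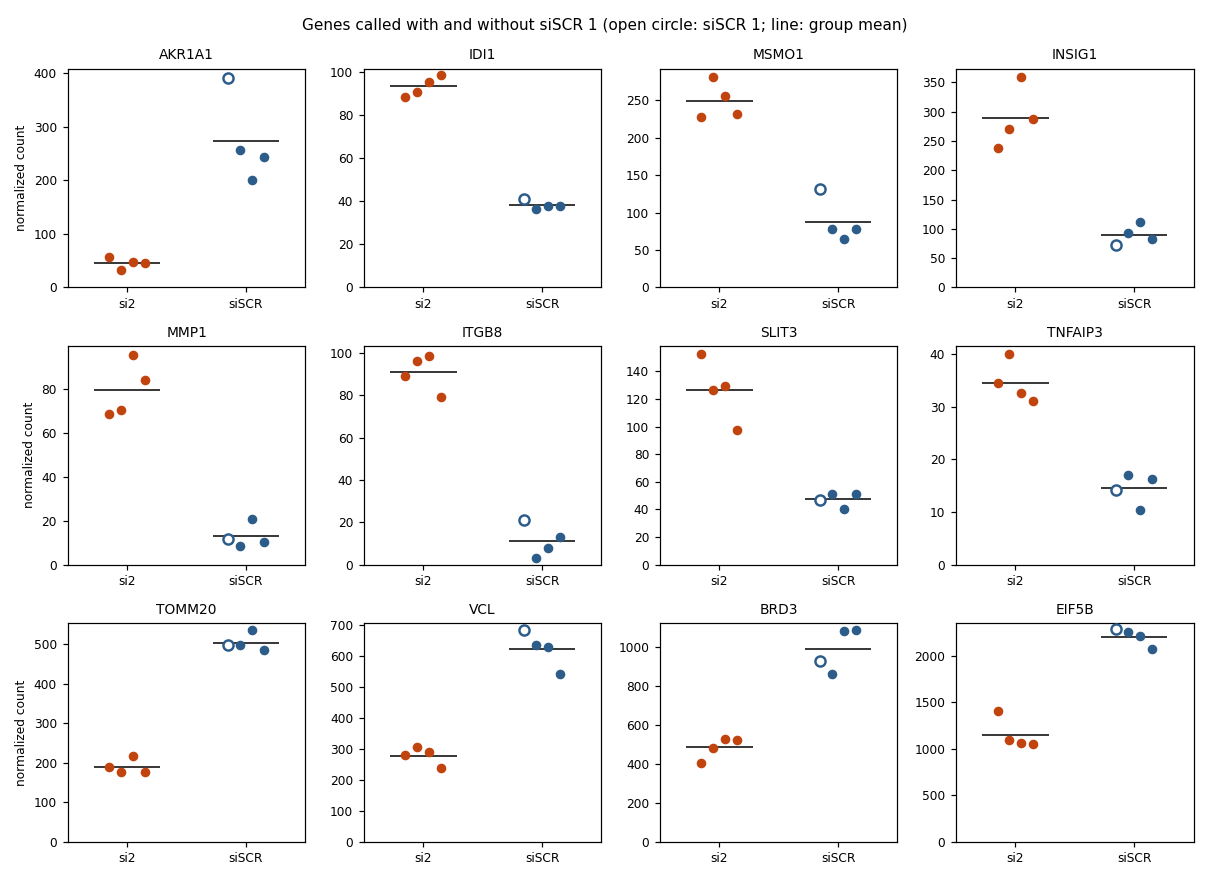
Normalized counts of 12 genes by library, si2 left and siSCR right, with the group mean as a line and siSCR 1 as an open circle. The 12 were picked among the 320 genes called in both fits. In every one of those 320 the si2 and siSCR libraries do not overlap, as in 1291 of all 10249 genes tested. IDI1, for example, is at 88.4 to 98.5 in si2 and 36.3 to 41.1 in siSCR.

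Among genes of the extracellular matrix, 3 of 30 tested rose in si2 and 0 fell (median 0.42), beside 1.93% and 1.19% of all genes tested, and without siSCR 1 13 rose and 2 fell (median 0.52), beside 7.82% and 6.75% of all genes. MMP1 (GRCh38 chromosome 11 from 102789920 to 102798160), an interstitial collagenase, had 69.0, 70.6, 95.6 and 84.5 in si2, against 11.8, 8.55, 20.9 and 10.2 in siSCR. The controls were all low and siSCR 1 lay within their range. MMP1 rose by 2.61 (SE 0.26; limma adjusted p = 0.00218) and by 2.60 without siSCR 1 (limma adjusted p = 0.00122). COL4A1, a chain of basement membrane collagen, had 673, 794, 856 and 771 in si2, against 379.5, 374, 369 and 284 in siSCR. Here siSCR 4 was the library below the others. COL4A1 rose by 1.14 and 1.18 with and without siSCR 1 (limma adjusted p = 0.00758 and 0.00337). COL4A2, the partner chain of COL4A1, was called only without siSCR 1 (0.76 and 0.87), as were the collagenase MMP2 (1.16), the lysyl oxidase LOXL2 (1.12) and fibrillin FBN1 (1.78), while NID1, which links laminin to collagen, fell (-1.04). MMP1 and COL4A1 kept their calls without any 1 library.

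Receptors for the matrix moved in few members. Of 12 integrin subunits 2 rose and 0 fell, and without siSCR 1 3 rose and 0 fell. ITGB8, the partner of ITGAV in a receptor that activates latent TGF-beta, had 89.3, 96.3, 98.7 and 79.3 in si2, against 21.0, 3.21, 7.85 and 13.2 in siSCR. The si2 libraries were close together, and siSCR 1 was the highest control. ITGB8 rose by 3.14 (SE 0.42; limma adjusted p = 0.0067) and by 3.50 without siSCR 1 (limma adjusted p = 9.62e-04). Its control levels were low, and the size of the fold change moved with the pseudocount, from 3.22 with 0.5 to 2.68 with 5. ITGAV itself rose by 0.75 and 0.87, but lost its call without each library other than siSCR 1 (highest limma adjusted p = 0.14, without siSCR 4). Among 45 genes of focal adhesions and the actin cytoskeleton 2 rose and 1 fell, and 3 and 3 without siSCR 1 (median 0.21 and 0.10). For all genes tested the shares were 1.93% and 1.19%, and 7.82% and 6.75% without siSCR 1. The 3 and 3 lie near those shares. LPP and the actin-binding caldesmon CALD1 rose (1.71 and 0.88; without siSCR 1 1.91 and 0.93) and vinculin, VCL, fell. VCL (chromosome 10 from 73995193 to 74121363), which links adhesions to actin, had 279, 307, 289 and 238 in si2, against 683, 636, 627 and 539.8 in siSCR. The siSCR 1 value was the highest, so leaving it out brought the groups slightly closer. VCL fell by 1.16 (limma adjusted p = 0.00639), with a log2 fold change of -1.11 without siSCR 1 (limma adjusted p = 0.00309). LPP and VCL kept their calls without any 1 library, and CALD1 did not (highest limma adjusted p = 0.124, without siSCR 4).

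Ligands and receptors known from axon guidance gave 5 rises and 0 falls of 32 tested (median 0.24), beside 1.93% and 1.19% of all genes tested, and 11 rises and 1 fall without siSCR 1 (median 0.33), beside 7.82% and 6.75% of all genes. The ligands SLIT2 and SLIT3 act on ROBO receptors. SLIT3 had 153, 127, 129 and 97.5 in si2, against 47.0, 51.3, 40.6 and 50.9 in siSCR, and SLIT2 had 16.8, 20.1, 26.3 and 19.2 in si2, against 4.20, 6.41, 7.85 and 8.15 in siSCR. In neither gene did the groups overlap, and SLIT2 was low throughout. SLIT3 rose by 1.39 and 1.38 with and without siSCR 1 (limma adjusted p = 0.00562 and 0.00296), and SLIT2 by 1.51 and 1.34 (limma adjusted p = 0.00863 and 0.00298). The ephrin receptor EPHA7 rose by 1.65 and 1.35, with 1390 to 1719 in si2, 582 to 644 in siSCR 2 to 4 and a lower 266 in siSCR 1. The semaphorin SEMA5A rose less (0.89 and 1.03). SLIT2 and SLIT3 kept their calls without any 1 library, EPHA7 lost it without si2 2 (limma adjusted p = 0.0512), and SEMA5A lost it without each library other than siSCR 1 (highest 0.109, without siSCR 4).

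In epithelial junctions and polarity 3 of 30 genes rose and 0 fell (median 0.24), and 6 and 0 without siSCR 1 (median 0.21), where all genes tested gave 1.93% and 1.19%, and 7.82% and 6.75%. They were CLDN2, the cation-conducting claudin of the proximal tubule (0.82 and 0.86), CLDN12 (0.94 and 1.04) and the polarity protein PALS1 (1.08 and 1.15). None of the 3 kept its call without any 1 of the 7 libraries other than siSCR 1 (highest limma adjusted p = 0.0736 for CLDN2, 0.0832 for CLDN12 and 0.0968 for PALS1). Of 34 ion channel genes 3 rose and 1 fell, beside 1.93% and 1.19% of all genes tested, and 7 and 1 without siSCR 1, beside 7.82% and 6.75% of all genes. The rises were in KCNJ13 (1.95 and 1.97), KCNIP1, which binds voltage-gated potassium channels (1.84 and 2.06), and CACNA2D1, an auxiliary subunit of calcium channels (1.16 and 1.15). KCNK2, a leak potassium channel, fell (-1.49 and -1.42). Of these 4, KCNJ13 alone kept its call without any 1 library; the highest limma adjusted p was 0.07 for KCNIP1 (without si2 4), 0.132 for CACNA2D1 (without siSCR 4) and 0.0803 for KCNK2 (without siSCR 2). Exons of KCNJ13 share 33.4% of their bases with another gene.

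Single genes of immune responses rose. The interferon-stimulated gene IFI6 was called only without siSCR 1 (1.20 and 1.52), while ISG15 (0.56 and 0.58) and IFIT1 (0.58 and 0.59), which respond strongly to interferon, were not called either way. These are only some of the interferon-stimulated genes tested, and others are not reported here. The class I antigen-presenting chain HLA-C rose by 1.18 and by 1.33 without siSCR 1; its reads can be shared with other class I genes. In the list of 17 NF-kB and cytokine genes 2 rose and 0 fell, and 5 and 0 without siSCR 1 (median 0.21 and 0.42). All genes tested gave 1.93% and 1.19%, and 7.82% and 6.75% without siSCR 1. TNFAIP3, the inhibitory ubiquitin editor A20, had 34.5, 40.1, 32.6 and 31.1 in si2, against 14.3, 17.1, 10.5 and 16.3 in siSCR. The siSCR 1 value lay within the other controls. TNFAIP3 rose by 1.21 and 1.21 (limma adjusted p = 0.0105 and 0.00531), and VCAM1 rose by 1.80 and 2.02 with values of 60.1 to 165 in si2 and 20.9 to 42.0 in siSCR. NFKBIA, ICAM1 and RELB were not called either way. HLA-C and TNFAIP3 kept their calls without any 1 library, and VCAM1 lost its call without si2 4, siSCR 2, siSCR 3 or siSCR 4 (highest limma adjusted p = 0.0729).

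Immediate early genes, which respond within minutes to growth factors, gave 1 rise and 1 fall of 19 tested, and 2 and 2 without siSCR 1. Over all genes tested 1.93% rose and 1.19% fell, and 7.82% and 6.75% without siSCR 1. EGR1 had 15, 14.5, 6.30 and 14.5 in si2, against 22.7, 67.3, 81.1 and 71.3 in siSCR. The controls other than siSCR 1 lay far above si2, and siSCR 1 lay between. EGR1 fell by 2.10 (limma adjusted p = 0.0263), with a log2 fold change of -2.52 without siSCR 1 (limma adjusted p = 0.00144), and MAFF, a small MAF protein, rose by 1.40 and 1.70. Both lost the call without each library other than siSCR 1 (highest limma adjusted p = 0.0835 for EGR1 and 0.124 for MAFF, both without siSCR 4).

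In the Hippo pathway the kinases MST1 and MST2 restrain the coactivator YAP, and VGLL4 competes with YAP for TEAD factors. Of its 23 genes 1 rose and 2 fell (median -0.02), beside 1.93% and 1.19% of all genes tested. Without siSCR 1 2 rose and 4 fell (median 0.21), beside 7.82% and 6.75%. STK3, which encodes MST2, had 64.6, 57.8, 57.8 and 82.9 in si2, against 165, 139, 161 and 169 in siSCR, and VGLL4 had 80.5, 96.3, 69.3 and 90.7 in si2, against 263, 211, 159.6 and 195 in siSCR. Both were lower in every si2 library than in any control. STK3 fell (-1.27 and -1.25 with and without siSCR 1; limma adjusted p = 0.00639 and 0.0034), and VGLL4 (-1.28 and -1.15; limma adjusted p = 0.0102 and 0.00438). ANKRD1, a target of YAP, rose by 2.01 and 2.05 (limma adjusted p = 0.00977 and 0.00543), whereas CCN1, another target, was not called (0.54 and 0.21). All 3 calls held without any 1 library, and exons of VGLL4 share 23.7% of their bases with another gene.

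Growth and nutrient signalling gave scattered calls. Their counts stand beside 1.93% higher and 1.19% lower over all genes tested, and 7.82% and 6.75% without siSCR 1. In mTORC1, folliculin and AMPK genes 2 of 35 rose and 0 fell, and 4 and 0 without siSCR 1. RRAGD, a GTPase that brings mTORC1 to the lysosome, rose by 1.18 and 1.32, and FNIP2, a partner of folliculin, by 1.22 and 1.38. FNIP2 had 95.5, 126, 125 and 99.0 in si2, against 64.6, 34.2, 30.1 and 71.3 in siSCR. Its controls were spread over a wide range, and its limma adjusted p was 0.0497 with all 8 libraries. Of 29 insulin, FOXO and PI3K genes 2 rose and 1 fell, and 7 and 2 without siSCR 1 (median 0.29 and 0.43). IGFBP7, a secreted binding protein, had 829.6, 847, 1075 and 781 in si2, against 442, 271, 272 and 282 in siSCR. The siSCR 1 value was apart from the other controls, on the side of si2. IGFBP7 rose by 1.50 and 1.67 (limma adjusted p = 0.0067 and 8.46e-04), PIK3R3, a regulatory subunit of PI3-kinase, rose by 1.20 and 1.12, and SH2B1 fell (-1.57 and -1.62). TGF-beta and BMP signalling held 1 rise, the receptor-activated SMAD5 (0.79 and 0.91), and 1 fall, the SMAD repressor SKI (-0.83 and -0.87), of 31 genes, and without siSCR 1 4 rises and 1 fall. IGFBP7 and PIK3R3 kept their calls without any 1 library; RRAGD, FNIP2, SMAD5 and SKI did not (highest limma adjusted p = 0.0736, 0.137, 0.124 and 0.14), and SH2B1 lost its call without siSCR 2 (0.0531).

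Of 124 chromatin modifiers tested, 2 rose and 4 fell (median -0.14), beside 1.93% and 1.19% of all genes, and without siSCR 1 4 rose and 10 fell (median -0.18), beside 7.82% and 6.75%. CBX6, a Polycomb chromobox protein, had 299, 303, 349 and 351 in si2, against 620.4, 872, 726 and 752 in siSCR. BRD3, a BET bromodomain protein that reads acetylated histones, had 405, 482, 527 and 523 in si2, against 927, 860.0, 1083 and 1089 in siSCR. In both genes the si2 libraries lay below every control by more than the spread within si2. CBX6 fell (-1.18 and -1.27 with and without siSCR 1; limma adjusted p = 0.0067 and 0.00176), and BRD3 (-1.03 and -1.06; limma adjusted p = 0.0119 and 0.00481). SMARCC2, a core subunit of the BAF remodeller, fell (-0.85 and -0.80; limma adjusted p = 0.0228 and 0.0109). Of the 2 rises the methyltransferase SETD7 had the smaller p (1.32 and 1.43). CBX6, BRD3 and SETD7 kept their calls without any 1 library, and SMARCC2 did not (highest limma adjusted p = 0.0803, without siSCR 2). Of 253 zinc finger (ZNF) genes 1 rose and 2 fell, and 6 and 16 without siSCR 1, all below the shares over all genes.

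In transport between nucleus and cytoplasm and among translation factors the calls with all 8 libraries were falls. The counts below stand beside 1.93% higher and 1.19% lower over all genes tested, and 7.82% and 6.75% without siSCR 1. In 56 nuclear pore and transport genes 0 rose and 3 fell (median -0.17), and 0 and 8 without siSCR 1 (median -0.28). They were the exportin XPO4 (-1.39 and -1.48), the central channel nucleoporin NUP62 (-0.94 and -1.04) and the importin TNPO1 (-0.74 and -0.72). EIF5B, which joins the ribosomal subunits at initiation, had 1407, 1097, 1062 and 1052 in si2, against 2294, 2259, 2212 and 2075 in siSCR. The si2 1 library was above the other 3 and still far below the controls. EIF5B fell (-0.95 and -0.93; limma adjusted p = 0.0145 and 0.00609), and with EEF2K, the kinase of an elongation factor (-0.84 and -0.96), it made the 2 falls among 44 translation factors, where 0 rose; without siSCR 1 1 rose and 2 fell. Of 37 tRNA synthetases the mitochondrial AARS2 fell (-1.32 and -1.42) and 0 rose, and 6 fell and 0 rose without siSCR 1. Of 42 regulators of alternative splicing RBFOX2 rose (0.65 and 0.65) and MBNL1 fell (-2.21 and -2.26). With all 8 libraries 8 of their values were positive and 34 negative (median -0.21), and without siSCR 1 3 rose and 8 fell (median -0.36). MBNL1 kept its call without any 1 library. The other genes named here lost theirs without at least 3 libraries, with highest limma adjusted p = 0.067 for XPO4, 0.0824 for NUP62, 0.117 for TNPO1, 0.0619 for EIF5B, 0.134 for EEF2K, 0.115 for AARS2 and 0.121 for RBFOX2.

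DNA repair held calls in both directions, where all genes tested gave 1.93% higher and 1.19% lower, and 7.82% and 6.75% without siSCR 1. UNG (-1.78 and -1.89) and MUTYH (-1.02 and -1.16), glycosylases that remove uracil and adenine mispaired with oxidised guanine, were the 2 falls among 25 genes of base excision and mismatch repair, where 0 rose; without siSCR 1 0 rose and 5 fell. Of 30 genes of homologous recombination and the Fanconi pathway 1 rose and 1 fell (median -0.27). NBN, which recruits the MRE11 complex to DNA breaks, had 691, 583, 646 and 585 in si2, against 348, 276, 344 and 305 in siSCR. CHEK1, the checkpoint kinase of replication stress, had 34.5, 34.5, 32.6 and 32.1 in si2, against 52.9, 90.8, 90.3 and 74.4 in siSCR. In NBN the controls were alike, and in CHEK1 siSCR 1 was the lowest control. NBN rose by 0.98 and 1.02 with and without siSCR 1 (limma adjusted p = 0.0114 and 0.00391), and CHEK1 fell (-1.15 and -1.32; limma adjusted p = 0.0152 and 0.00116). Without siSCR 1 the list gave 1 rise and 12 falls (median -0.61), among them BRCA1 (-0.97), FANCA (-1.34) and BLM (-1.17). UNG and NBN kept their calls without any 1 library, CHEK1 lost it without si2 4, siSCR 2 or siSCR 4 (highest limma adjusted p = 0.0619), and MUTYH without each library other than siSCR 1 (highest 0.113, without si2 2).

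Beyond these lists and the largest changes, the genes with the smallest p were spread over many functions. The rises were UBE2V2, a partner of the ubiquitin-conjugating enzyme UBE2N, TFPI, the inhibitor of tissue factor in coagulation, the actin-bundling plastin PLS1, ATXN10, GPR180 and DSEL, with SLIT3 and IGFBP7 described above. UBE2V2 had 403, 449, 467 and 366 in si2, against 168, 153, 153 and 149 in siSCR, and TFPI had 875, 862, 817 and 783 in si2, against 325, 385, 409 and 334 in siSCR. The controls of UBE2V2 were nearly equal. UBE2V2 rose by 1.43 and 1.46 with and without siSCR 1 (limma adjusted p = 0.00262 and 9.49e-04), and TFPI by 1.20 and 1.15 (limma adjusted p = 0.00491 and 0.00213). The falls were TOMM20, the receptor of the outer mitochondrial import pore, DESI2, the dynein chain DYNC1LI2, the torsin TOR1A, the sorting nexin SNX5 and the kinase PAK2, with STK3, VCL, CBX6 and VGLL4. TOMM20 (GRCh38 chromosome 1 from 235109336 to 235128936) had 189, 176, 216 and 176 in si2, against 498, 498, 536 and 485 in siSCR. Its controls were tight and siSCR 1 lay within their range. TOMM20 fell by 1.41 (SE 0.14; limma adjusted p = 0.00258), with a log2 fold change of -1.42 without siSCR 1 (limma adjusted p = 9.62e-04). It was the 1 gene called of 24 of mitochondrial protein import (median -0.11), beside 1.93% higher and 1.19% lower over all genes tested. Without siSCR 1 that list gave 0 rises and 3 falls, beside 7.82% and 6.75%. DYNC1LI2 had 466, 449, 489 and 437 in si2, against 1244, 963, 1022 and 1002 in siSCR, and fell (-1.19 and -1.11). All of the genes named in these rises and falls kept their calls without any 1 library. Exons of DSEL and DYNC1LI2 share 36.8% and 22.2% of their bases with another gene.

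Among transcripts with a mean of at least 1000 in the higher group, UGCG, the enzyme that starts glucosylceramide synthesis, had 3869, 3809, 4175 and 3692 in si2, against 2419, 1778, 1920 and 1786 in siSCR. CDK6, a kinase of the G1 phase, had 4674, 5067, 3244 and 3828 in si2, against 2175, 1837, 1945 and 1769 in siSCR. Neither gene's groups overlapped. UGCG rose by 0.99 and 1.09 and CDK6 by 1.10 and 1.16 with and without siSCR 1 (limma adjusted p = 0.0125 and 0.00208 for UGCG, and 0.0145 and 0.00485 for CDK6). Of the abundant falls, HMGA1, an architectural chromatin protein, had 553, 592, 778 and 707 in si2, against 952, 1918, 2478 and 1897 in siSCR. Here siSCR 1 lay nearest to si2. HMGA1 fell (-1.39 and -1.68; limma adjusted p = 0.0282 and 0.00119). SNHG25, a host gene of small nucleolar RNA, fell (-1.23 and -1.23), the centrin CETN3 (-1.01 and -1.05), and AP2M1, a subunit of the clathrin adaptor of endocytosis (-0.84 and -0.83). Leaving out 1 library other than siSCR 1 ended the call of UGCG, CDK6, SNHG25, CETN3, AP2M1 and HMGA1 in some fits (highest limma adjusted p = 0.0523, 0.0526, 0.0547, 0.0528, 0.107 and 0.0909). SNHG25 shares 48.6% of its exon bases with another gene.

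In processes of cell division siSCR 1 lay with or past si2. Of 34 mitosis genes 0 were called with all 8 libraries, although all 34 had negative values (median -0.58), and 32 fell without siSCR 1 (median -1.02), against 6.75% of all genes tested. The mitosis score, an average over members of their log2 levels after centring each gene across the 8 libraries, was -0.31 to -0.27 in si2, 0.69 to 0.77 in siSCR 2 to 4 and -1.08 in siSCR 1. TOP2A, the topoisomerase that separates sister chromatids, had 2452, 2319, 2355 and 2567 in si2, against 2358, 6856, 6474 and 7565 in siSCR. Without siSCR 1 the controls were all at least 6474, and siSCR 1 alone lay in the si2 range. The log2 fold change of TOP2A was -1.13 with all 8 libraries (SE 0.33; limma adjusted p = 0.0989), and without siSCR 1 it fell by 1.52 (SE 0.13; limma adjusted p = 8.46e-04). CENPF, a kinetochore protein, had 1631, 1635, 1238 and 1166 in si2, against 843, 3052, 2969 and 2790 in siSCR. Its lowest library was siSCR 1. The log2 fold change of CENPF was -0.62 (limma adjusted p = 0.414) and -1.07 without siSCR 1 (limma adjusted p = 0.00531).

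DNA replication showed the same placing: of 42 S phase genes 0 were called with all 8 libraries (median -0.40), and 0 rose and 22 fell without siSCR 1 (median -0.77), beside 7.82% and 6.75% of all genes. The score was -0.25 to -0.13 in si2, 0.51 to 0.53 in siSCR 2 to 4 and -0.79 in siSCR 1. MCM7, a subunit of the replicative helicase, had 364, 368, 575 and 470.1 in si2, against 393, 808, 816 and 909.5 in siSCR. Its siSCR 1 value lay inside the si2 range. The log2 fold change of MCM7 was -0.67 (limma adjusted p = 0.22) and -0.95 without siSCR 1 (limma adjusted p = 0.0127), and that of RRM1, a ribonucleotide reductase subunit, -0.31 and -0.73. Of 23 histone genes 0 were called with all 8 libraries (median -0.84, the lowest of any list with at least 10 tested members) and 0 rose and 9 fell without siSCR 1 (median -1.06), beside 7.82% and 6.75% of all genes. H4C3 had 1854, 3774, 1987 and 2493 in si2, against 2413, 5601, 4577 and 5191 in siSCR, with siSCR 1 inside the si2 range. Its log2 fold change was -0.80 (limma adjusted p = 0.188) and -1.07 without siSCR 1 (limma adjusted p = 0.0211). Histone genes are near-identical copies, and most of their messengers lack a poly(A) tail, so their counts are uncertain. SKP2, which marks the inhibitor p27 for degradation, was called with all 8 libraries (-1.48; siSCR 1 at 62.1, other controls at 139 to 158), but in no fit that left out a library other than siSCR 1 (highest limma adjusted p = 0.0824).

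Cell cycle promoters are known for CCAAT boxes with a cell cycle homology region in mitosis genes and for E2F sites in S phase genes. In the RefSeq windows, searched on both strands, TTTGAA, the cell cycle homology region, lay in 20 of 29 mitosis promoters and in 9.22% of tested genes with a promoter, and CCAAT in 22 of 29. TTTNNCGC, an E2F site, lay in 22 of 36 S phase promoters and in 11.2% of tested genes. CACGTG, the E box bound by MYC, lay in 17 of 37 promoters of ribosome biogenesis genes and in 10.5% of tested genes. The stretches are from TOP2A (chr17:40417930-40418105, minus strand), CCNB2 (chr15:59105011-59105137, plus strand), MCM7 (chr7:100101384-100101421, minus strand) and FBL (chr19:39846353-39846388, minus strand) of GRCh38.p14. Each was chosen to show a motif in a list in which the score of siSCR 1 lay past those of si2. CCNB2 is a mitotic cyclin and FBL a methyltransferase of ribosomal RNA. They run 5′ to 3′ on the gene's strand, with capitals for CCAAT and TTTGAA or their reverse complements in TOP2A and CCNB2, the E2F site in MCM7, whose last base also begins a CCAAT box left in lower case, and the E box in FBL.
TOP2A: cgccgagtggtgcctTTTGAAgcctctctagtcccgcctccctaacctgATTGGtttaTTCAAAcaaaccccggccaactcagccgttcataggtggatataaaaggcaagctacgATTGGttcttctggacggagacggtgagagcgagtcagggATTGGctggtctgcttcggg
CCNB2: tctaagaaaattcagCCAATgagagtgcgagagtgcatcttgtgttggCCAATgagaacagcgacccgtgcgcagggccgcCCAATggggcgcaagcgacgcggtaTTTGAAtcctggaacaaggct
MCM7: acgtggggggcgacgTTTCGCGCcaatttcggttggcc
FBL: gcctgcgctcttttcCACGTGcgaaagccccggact

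Ribosome biogenesis gave 0 rises and 2 falls of 48 genes with all 8 libraries (median -0.19), beside 1.93% and 1.19% of all genes tested. Without siSCR 1 it gave 0 and 11 (median -0.42), beside 7.82% and 6.75%. The 2 falls with all 8 libraries were RPS19BP1 (-1.84 and -1.92) and WDR74 (-0.76 and -0.82). NCL, the abundant nucleolar protein nucleolin, was picked for display after its values were seen and had 3010, 2569, 1880 and 2366 in si2, against 2601, 5218, 4526 and 4585 in siSCR. Its siSCR 1 value lay in the si2 range. The log2 fold change of NCL was -0.76 (limma adjusted p = 0.126) and -0.98 without siSCR 1 (limma adjusted p = 0.00954). Of 34 subunits and factors of RNA polymerases I and III, POLR1G alone was called (-1.85 and -2.0; 45.1% of its exon bases are shared with another gene), and 0 rose and 4 fell without siSCR 1. SRM, the spermidine synthase, had 381, 307, 228 and 326 in si2, against 567, 999, 704 and 904 in siSCR. Its siSCR 1 value was the lowest control. SRM fell (-1.34 and -1.49; limma adjusted p = 0.0164 and 0.00347), and CTPS1, which makes CTP, fell (-1.49 and -1.69). RPS19BP1, POLR1G and CTPS1 kept their calls without any 1 library; WDR74 and SRM did not (highest limma adjusted p = 0.142 and 0.0569, both without siSCR 4).

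Targets of p53 and genes of the lysosome were called higher in si2 in the fit without siSCR 1 and in none with it. Of 29 p53 targets 0 rose and 1 fell with all 8 libraries (median 0.16), and 9 rose and 1 fell without siSCR 1 (median 0.39), beside 7.82% and 6.75% of all genes. Their score was 0.05 to 0.10 in si2, -0.32 to -0.29 in siSCR 2 to 4 and 0.63 in siSCR 1. CDKN1A, the inhibitor p21 of cyclin-dependent kinases, had 2883, 2505, 3479 and 2815 in si2, against 4349, 892, 948 and 854 in siSCR. The highest library of all was siSCR 1. The log2 fold change of CDKN1A was 1.12 (limma adjusted p = 0.221), and without siSCR 1 it rose by 1.69 (limma adjusted p = 8.46e-04). MDM2 (0.90), RRM2B (0.87) and ZMAT3 (0.89) rose in the same way, whereas the death receptor FAS was lower against either set of controls. FAS had 28.3, 24.9, 23.1 and 32.1 in si2, against 61.3, 49.1, 64.1 and 65.2 in siSCR, and fell (-1.12 and -1.11; limma adjusted p = 0.0102 and 0.00504), a call that held without any 1 library.

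Of 33 genes of the lysosome and autophagy 0 were called with all 8 libraries (median 0.31), and 9 rose and 0 fell without siSCR 1 (median 0.40), beside 7.82% and 6.75% of all genes. The score was 0.02 to 0.25 in si2, -0.32 to -0.17 in siSCR 2 to 4 and 0.19 in siSCR 1. PSAP, the precursor of the saposins, had 7774, 8171, 13116 and 9550 in si2, against 8339, 4907, 4822 and 5319 in siSCR, and the protease CTSD had 5976, 6701, 7319 and 6778 in si2, against 7833, 3325, 3279 and 4361 in siSCR. In PSAP siSCR 1 lay within si2, and in CTSD, which shares 52.7% of its exon bases with another gene, it lay past all of it. The log2 fold change of PSAP was 0.73 and 0.91 with and without siSCR 1 (limma adjusted p = 0.127 and 0.0169), and that of CTSD 0.60 and 0.88 (limma adjusted p = 0.248 and 0.00863). GABARAPL1 (1.23), CTSB (0.95) and LAMP2 (0.83) also rose without siSCR 1. The gap between siSCR 1 and the other controls in p53 targets, division genes and the mitochondrial share moves with these results, and its part in them was not tested.

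**Figure D3:**
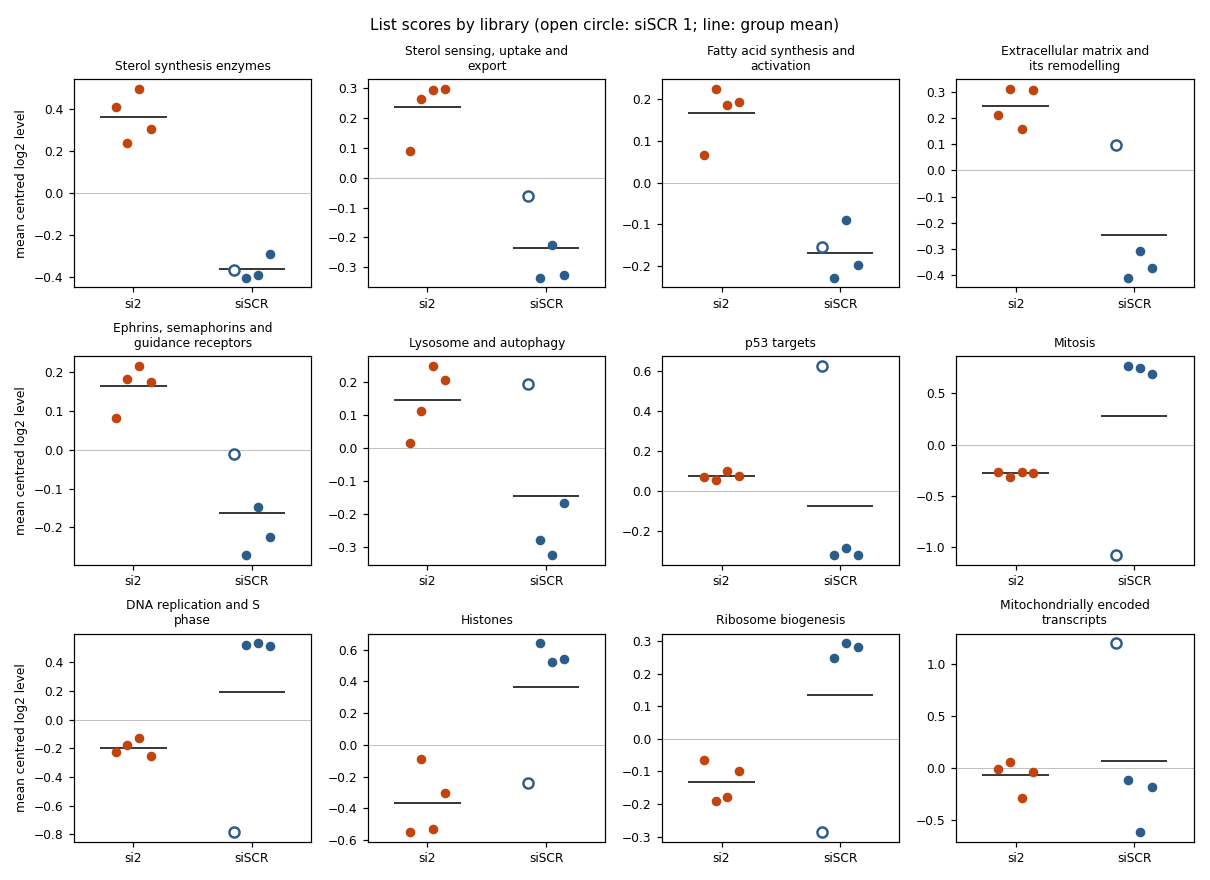
Scores of 12 gene lists by library, in mean centred log2 level, si2 left and siSCR right, with siSCR 1 as an open circle and the group mean as a line. siSCR 1 lies with the other controls in sterol synthesis (-0.37, others -0.40 to -0.29) and apart from them, past si2, in mitosis (-1.08) and p53 targets (0.63).

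The genes with the smallest p among those called only without siSCR 1 included CREBRF, a regulator of CREB3 factors, OPTN, an autophagy receptor, TUBA4A and SP140 on the higher side, with CDKN1A and FN1. CREBRF had 327, 396, 299 and 274 in si2, against 279.6, 79.1, 87.6 and 97.8 in siSCR. FN1, the matrix protein fibronectin, had 8138, 8712, 6899 and 8514 in si2, against 22142, 2949, 3251 and 2793 in siSCR. In both, siSCR 1 lay away from the other controls, and in FN1 it was the highest library by far. Without siSCR 1 CREBRF rose by 1.86 and FN1 by 1.43 (limma adjusted p = 8.46e-04 and 0.00106), and with it the values were 1.44 and 0.70 (limma adjusted p = 0.0609 and 0.549). Those on the lower side were MT2A, a metallothionein that binds zinc, the chromatin proteins HMGB2 and ANP32E, SLC7A5, the transporter of large neutral amino acids, and CDCA3, with TOP2A. MT2A had 1052, 1007, 1178 and 1186 in si2, against 969.6, 4317, 4726 and 4140 in siSCR. SLC7A5 had 25.7, 49.0, 26.3 and 32.1 in si2, against 40.3, 189, 181 and 189 in siSCR. In both genes siSCR 2 to 4 were alike and siSCR 1 lay in or just past the si2 range. Without siSCR 1 MT2A and SLC7A5 fell (-1.99 and -2.50; limma adjusted p = 8.46e-04 for MT2A and 8.46e-04 for SLC7A5), and with it the values were -1.45 and -1.96 (limma adjusted p = 0.111 and 0.0561).

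**Figure D4:**
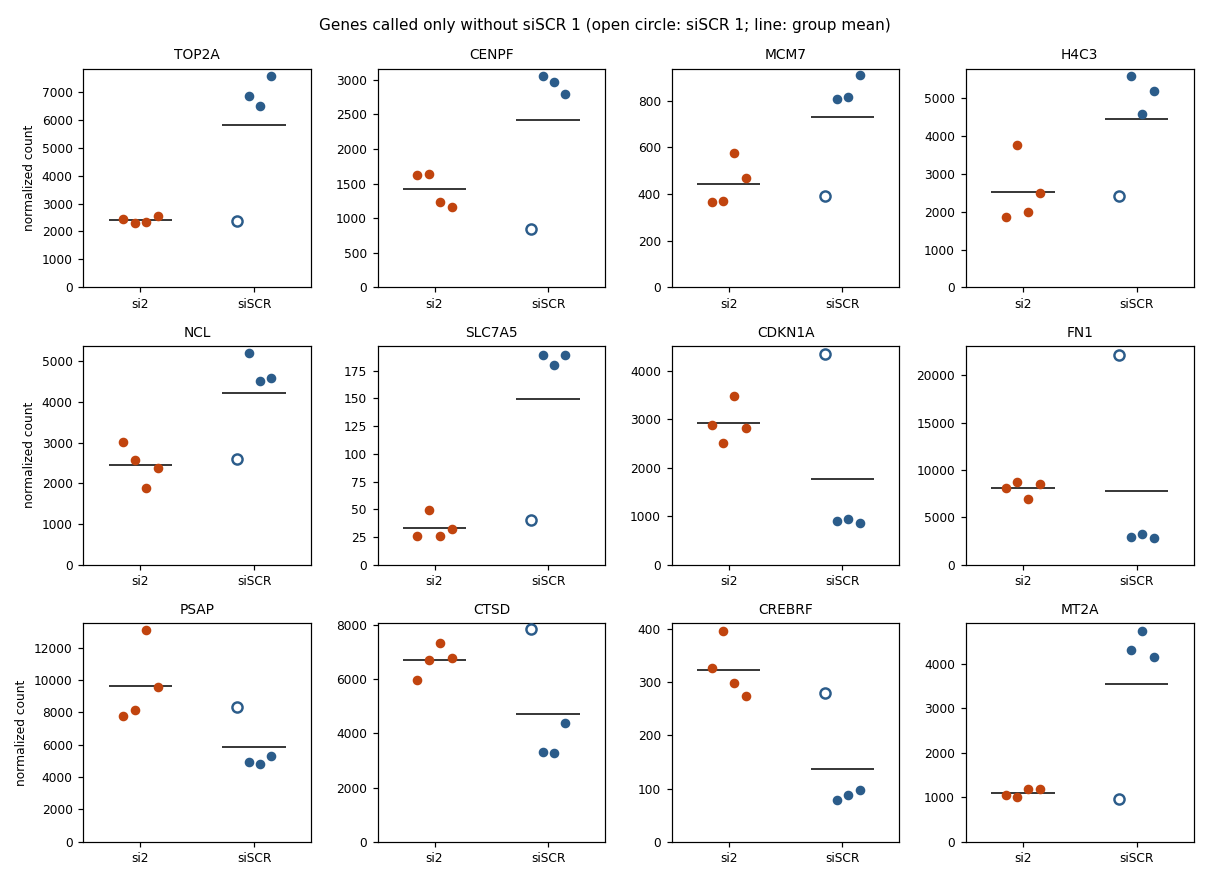
Normalized counts of 12 genes called only without siSCR 1, by library, si2 left and siSCR right, with siSCR 1 as an open circle and the group mean as a line. siSCR 1 lies near or past si2 in each, for example TOP2A at 2358 against 2319 to 2567 in si2 and 6474 to 7565 in siSCR 2 to 4. This placing follows in part from the choice of the genes.

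No call was lost by leaving siSCR 1 out, but the evidence for some genes was weaker without it. Among genes called in both fits, the rises with the largest p without siSCR 1 were CACNA2D1, RIPOR2, DHCR7, GID8 and RIC1. The falls were GNPTAB, COG8, AMH, SLC25A14 and MED17. Their limma adjusted p without siSCR 1 ran from 0.024 for MED17 to 0.0322 for GNPTAB. In all of these the unadjusted limma p was larger without siSCR 1, although the adjusted one was smaller. The same held for MMP1, HMGCS1 and EIF5B, whereas in IGFBP7 and MSMO1 both were smaller. The adjustment also depends on the other genes, so a smaller adjusted p is not by itself stronger evidence. GNPTAB, which adds the mannose phosphate tag of lysosomal enzymes, had 159, 173, 101 and 159.6 in si2, against 291, 298, 222 and 262 in siSCR, and fell (-0.87 and -0.83). RIPOR2 had 39.8, 20.1, 17.9 and 35.8 in si2, against 3.36, 3.21, 9.16 and 13.2 in siSCR, and rose by 1.95 and 1.71. The spread within si2 was wide in both. Each of these 10 genes lost its call in at least 5 of the 8 fits that left out 1 library, with the highest limma adjusted p at 0.148 for RIC1 and 0.148 for COG8, both without siSCR 4. COG8 shares 48.0% of its exon bases with another gene. Other named genes found with over 10% shared were VIM (24.4%), WDR74 (22.3%), NUP62 (21.1%), IGFBP7 (18.9%), BRD3 (18.6%), TUBA4A (18.1%), PIK3R3 (17.4%), CLDN12 (16.3%), MBNL1 (15.6%), MUTYH (14.1%), ATXN10 (13.9%), MED17 (13.5%), VCL (11.1%) and EIF5B (10.8%).

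Several lists held no call with all 8 libraries, where 1.93% of all genes tested rose and 1.19% fell. Without siSCR 1 the shares over all genes were 7.82% and 6.75%. Cytosolic ribosomal proteins had 0 of 78 called either way and medians of 0.04 and 0.04, and the proteasome 0 of 44 and medians of 0.06 and -0.04. Nuclear-encoded subunits of the respiratory chain had 0 of 76 called and 1 fall without siSCR 1, and glycolysis 0 of 19 and 1 rise without siSCR 1. NRF2 targets and glutathione genes had 0 of 28 called (2 rises and 2 falls without siSCR 1), HIF targets 0 of 16 (3 and 1), and the ATF4 response 0 of 25 (4 and 2). Without siSCR 1 the rises in HIF targets and in the ATF4 response lay above the share of all genes. The NRF2 counts lay near the shares. A p above the threshold does not show that these genes were alike in both groups. The 13 mitochondrially encoded transcripts had 0 called with all 8 libraries and 1 without siSCR 1, which rose, and a median of -0.10, which turned to 0.37 without siSCR 1. MT-CO3 had 21973, 23311, 26133 and 22353 in si2, against 84406, 21729, 19383 and 23239 in siSCR. The other controls overlapped si2 and siSCR 1 was far above both, with a log2 fold change of -0.37 and 0.13 with and without it (limma adjusted p = 0.68 and 0.582).

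**Figure D5:**
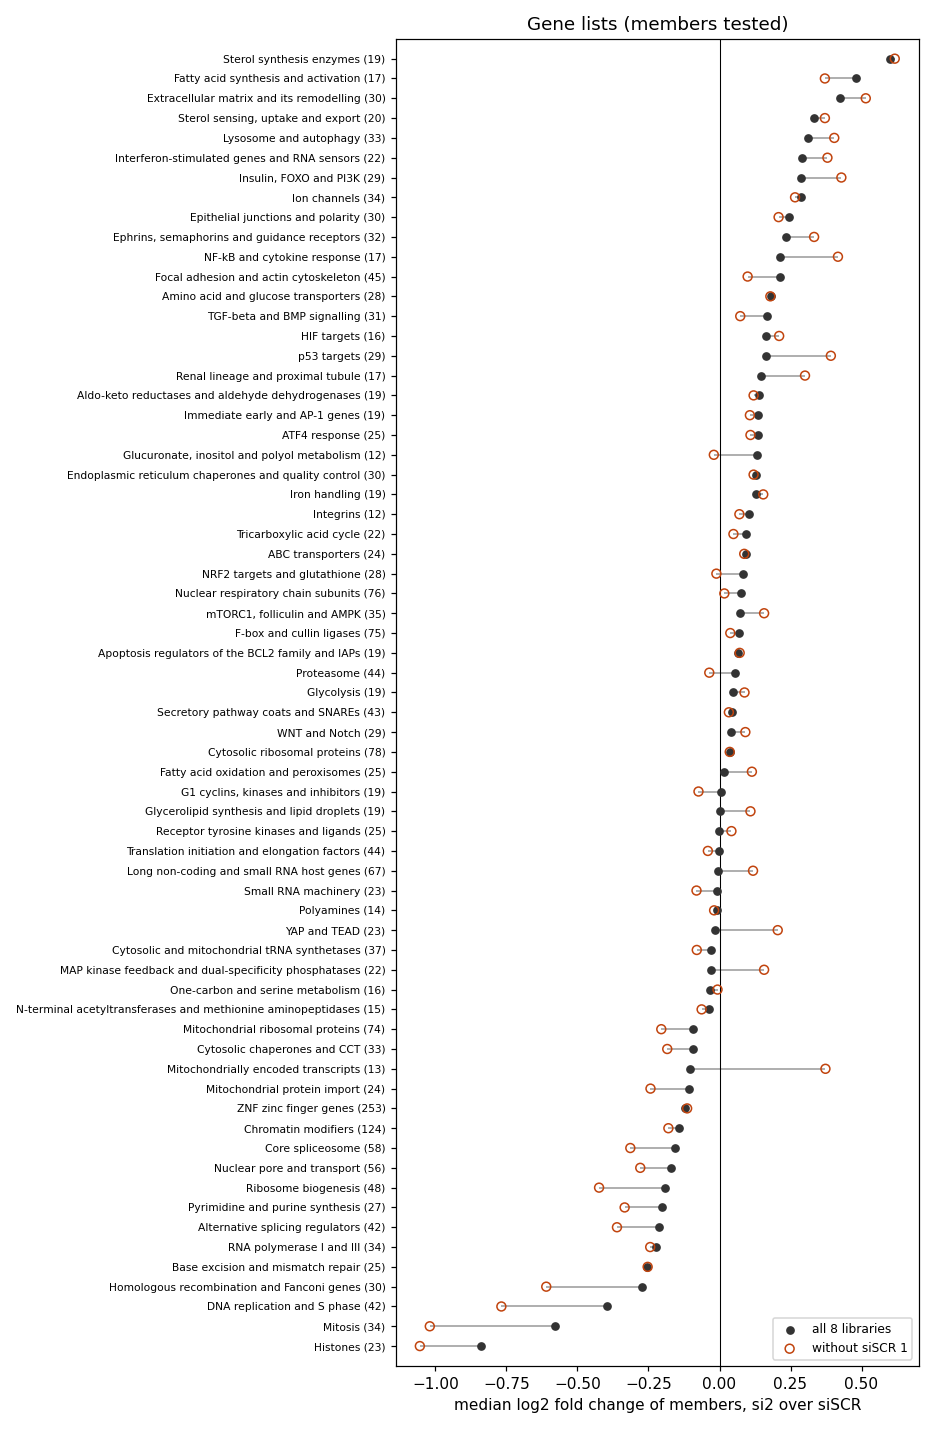
Median log2 fold change (si2 over siSCR) of the tested members of each list with at least 10 of them, from all 8 libraries (filled) and without siSCR 1 (open), with the number of members in brackets. Sterol synthesis is highest at 0.60 and 0.62, and mitosis is at -0.58 with all libraries and -1.02 without siSCR 1.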

How the data were processed

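Gene-level RNA sequencing was described in 4 si2 and 4 siSCR libraries; the 3 libraries of the first AKR1A1 siRNA were not used here. Per the submitters' processing notes, the authors used cutadapt, FastQC, STAR, HTSeq and DESeq2 with GRCh38, whose versions are not given in the sources used here. Log2 values per library were deposited by the authors, and undone these gave whole reads within 0.01 read, as log2(normalized count + 1) on a relative log expression scale; the deposited fold changes and p-values were not used. Of 33080 genes, 17211 had a read and 10249 reached a normalized count of 10 in at least 4 libraries. These were fitted with limma 3.58.1 in R 4.3.3, with group as the only term, a constant prior variance and Benjamini-Hochberg adjustment; all tests were two-sided and a gene was called at an adjusted p under 0.05. The fit was checked on simulated counts in which no library stood apart. That check therefore does not cover a control like siSCR 1. Fits that left out a library used the same genes. Positions come from GENCODE 29, and figures and tables were made in Python 3.11.15.

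The genes and lists (71, of which 70 had a tested member) were chosen with earlier results of these data known. Named genes were AKR1A1; the 10 in each direction with the smallest p, no overlap and a higher group averaging 100 or more, outside the 8 largest changes; 6 in each direction averaging 1000 or more; 6 in each direction called only without siSCR 1; the 5 in each direction with the largest p without it; in each list up to 4 called members, or the 2 of highest level; and members that tell the order of a pathway. NCL, members named as uncalled and other list members called only without siSCR 1 were chosen after their values were seen. Stray matches were taken out of the lists of RNA polymerase subunits and glucuronate genes after values were seen. Same-numbered libraries had correlations of their deviations from -0.03 to 0.18, positive for numbers 1, 3 and 4. The numbers were not taken as pairs in the main fit. Alternatives were leaving out each library, the replicate block, no filter, a minimum of 50, pseudocounts of 0.5 and 5, upper-quartile rescaling, limma-trend and voom on recovered reads. Some genes that the naming rule or a list includes are not reported here.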

Additional observations from a re-analysis of the deposited data

Results flagged for a closer look

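In 138 groups of 4 values, for named genes, list scores and the mitochondrial share, 23 had a highest or lowest library whose gap to its neighbour was, as a share of the group's range, above Dixon's 95% critical value; chance flags about 1 in 20 groups. Of the 23, 17 were siSCR 1, 3 were si2 3, 2 were si2 1 and 1 was siSCR 4. That chance rate holds for groups not chosen by their values, whereas some genes were named because they were called only without siSCR 1. For those genes a siSCR 1 flag follows partly from the choice. The 23 and the 17 therefore cannot be set against chance.

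In siSCR 1 the single genes, as normalized counts, were SREBF2 at 178, IGFBP7 at 442, CDKN1A at 4349, PSAP at 8339, FN1 at 22142, CREBRF at 279.6, OPTN at 991.5 and MT-CO3 at 84406, all above the other controls, and CENPF at 843, MT2A at 969.6 and SLC7A5 at 40.3, all below them. The list scores of siSCR 1 that stood apart, in mean centred log2 level, were p53 targets at 0.628, above the other controls, and mitosis at -1.079, S phase at -0.785, histones at -0.237 and ribosome biogenesis at -0.287, below them. Its mitochondrial transcripts took 12.1% of reads.

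In the other libraries, si2 3 stood apart in SCD at 1115, EGR1 at 6.30 and NUP62 at 210.0, si2 1 in EIF5B at 1407 and in the score of sterol sensing, uptake and export at 0.091, below the other si2 libraries, and siSCR 4 in COL4A1 at 284. The cause of none of these was tested.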

How the results depend on the processing

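With all 8 libraries 198 were counted as genes higher in si2 and 122 as genes lower in si2. Leaving out 1 library gave between 53 genes (without si2 4 or siSCR 2) and 801 genes (without siSCR 1) higher, and between 31 (without siSCR 2) and 692 (without siSCR 1) lower. Each library other than siSCR 1 brought both counts down by more than 1.5 times: without si2 1 there were 62 higher and 46 lower, without si2 2 63 and 46, without si2 3 81 and 58, without si2 4 53 and 37, without siSCR 2 53 and 31, without siSCR 3 83 and 57, and without siSCR 4 57 and 33. These fits hold fewer libraries. With the replicate number as a block 108 were higher and 67 lower. Deviations of same-numbered libraries correlated at 0.10, -0.03, 0.18 and 0.09 for numbers 1 to 4. The si2 1, si2 3 and si2 4 libraries correlated best with the control of their own number, and si2 2 with siSCR 1 (0.10). Whether the numbers mark a shared batch was not tested. With no filter on low values, which tested 17211 genes, 71 were higher and 37 lower, and limma-trend gave 306 higher, for which the cause was not tested. A minimum of 50, pseudocounts of 0.5 and 5, upper-quartile rescaling and voom kept both counts within 1.5 times. AKR1A1 kept its call under all 16 alternatives. Of 117 named genes called, 46 kept the call without any 1 library and 45 under every alternative that tested them, and none changed sign. Depths of 2271348 to 5939514 reads limit genes of low count, and low counts make their fold changes depend on the pseudocount.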
